A study of Mus musculus with 11 samples.

Results

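The respiratory chain genes are the genes whose products build the electron transport complexes I, III and IV and the ATP synthase (complex V) of the inner mitochondrial membrane. They were chosen by symbol alone, as rows that start with mt-Nd, mt-Co, mt-Cytb, mt-Atp, Ndufa, Ndufb, Ndufc, Ndufs, Ndufv, Uqcr, Cox or Atp5 and hold no "-ps". This gave 117 of the 35814 rows of the count table, of which 13 are encoded by mitochondrial DNA and 104 by nuclear DNA. The nucleus-encoded members comprised 43 complex I subunits, 8 complex I assembly factors, 8 complex III genes, 18 complex IV subunits, 10 complex IV assembly factors and 17 complex V genes. The 13 mitochondria-encoded members comprised 7 subunits of complex I, 1 of complex III, 3 of complex IV and 2 of complex V. The rule itself uses no expression value, but it was set with earlier results of these data known.

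Complexes I, III and IV pass electrons from NADH to oxygen and pump protons, and complex V uses the proton gradient to make ATP. Each of these complexes holds core subunits that are transcribed and translated inside the mitochondrion, together with subunits that are transcribed in the nucleus and imported, so that both genomes have to supply matching parts. T cells raise their mitochondrial mass and respiration on activation and depend on respiration as memory and regulatory cells, and respiratory chain transcripts are also abundant in neurons, heart, muscle and kidney tubules.

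The libraries were made from RNA of CD4+ T cells sorted from kidneys of young adult male C57BL/6 mice, all of which were taken on day 2 after renal ischemia–reperfusion injury (IRI). The groups were CD4cre controls, given as WT in the labels (n = 3 mice), CD4IKK1Δ mice, in which the floxed *Chuk* gene encoding IKK1 is deleted by Cre (n = 5), and CD4NIKΔ mice, in which the floxed *Map3k14* gene encoding NIK is deleted by Cre (n = 3). In every group the Cre recombinase was driven by the CD4 promoter, so that all T cells that passed through a CD4-expressing stage carry it, CD8+ T cells included. Libraries were prepared with a SMARTer kit, and no sham-operated mice were among these libraries.

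The libraries held between 15751468 and 25736892 estimated counts, and levels are given as CPM, counts scaled to a common library total with TMM factors. *Chuk* had 258 to 588 counts in CD4IKK1Δ and 325 to 683 in CD4cre libraries (log2 fold change −0.11, FDR 0.921), and *Map3k14* had 232 to 626 counts in CD4NIKΔ and 294 to 506 in CD4cre libraries (0.30, FDR 0.575). *Map3k14* was lowest in CD4IKK1Δ libraries, with 29 to 186 counts (−1.91 against CD4NIKΔ, FDR 0.00418), so that the gene deleted in CD4NIKΔ was higher there than in CD4IKK1Δ. These are sums over whole transcripts that do not resolve the floxed exons, so that the group names rest on the labels. The summed level of 18 T cell markers ran from 1734 to 3270 CPM in CD4cre, from 17.5 to 1486 CPM in CD4IKK1Δ and from 8883 to 13216 CPM in CD4NIKΔ libraries. The summed level of 12 neuronal markers ran from 3384 to 4124, from 4264 to 4983 and from 1158 to 2314 CPM in the same order, and exceeded that of the T cell markers in all 8 CD4cre and CD4IKK1Δ libraries. CD4IKK1Δ replicate 1, in which T cell markers were nearly absent, had 41 counts of T cell receptor constant genes, and replicate 2 had 868. Whether cells other than CD4+ T cells were in these samples was not tested. Fewer T cells and less RNA per T cell cannot be told apart in such bulk samples.

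The mitochondrial members lie on 1 circular genome of 16299 bases, on which neighbouring genes overlap. These overlaps are shown because a read wholly within one would fit both genes. Reads are longer than the overlaps of 7 and 14 bases given below, so that only the 43-base overlap could hold one. The level of *mt-Atp8*, the short gene there, is uncertain for that reason. Sequences are from chromosome M of GRCm39 on the plus strand, with the bases that belong to both genes in capitals and 20 bases on either side in lower case. The last 43 bases of *mt-Atp8* are the first 43 of *mt-Atp6* (chrM:7907-7989 with its flanks), and *mt-Nd4l* shares 7 bases with *mt-Nd4* (chrM:10147-10193).
mt-Atp8 and mt-Atp6: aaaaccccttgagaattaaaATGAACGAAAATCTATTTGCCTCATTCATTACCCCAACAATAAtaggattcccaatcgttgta
mt-Nd4l and mt-Nd4: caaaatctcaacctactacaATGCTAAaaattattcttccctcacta
Both runs of capitals begin with ATG, the start codon of the downstream gene. *mt-Nd5* and *mt-Nd6* overlap by 14 bases on opposite strands. The kit and the counting are not stated to keep the strand. If the strand was not kept, reads from the opposite strand along *mt-Nd6* could be counted for it too.

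Transcription of nucleus-encoded respiratory genes is classically linked to NRF1 and to the ETS factor GABP (NRF2), whose motifs sit close to the start sites of many of them. The NRF1 palindrome, GCGCA followed directly by its reverse complement TGCGC, and the letters CCGGAAG for ETS factors were searched on both strands of the RefSeq promoters of GRCm38.p6, from 250 bases before to 50 after the start. Of 86 promoters of 80 nucleus-encoded members, 23 (26.7%) held the ETS letters and 7 (8.14%) the NRF1 letters, against 8.86% and 0.971% of all 32851 promoters. Sites of members described further on are printed to show what these matches look like, with the motif or its reverse complement in capitals and 10 bases on either side, read along the gene's strand.
Cox8a, ETS, chr19:7217605-7217631, minus strand: ttccgaaataCTTCCGGctcgggcgtc
Cox6b1, ETS, chr7:30626126-30626152, minus strand: cctctcgcagCTTCCGGccagtcggaa
Cox6a1, ETS, chr5:115348958-115348984, minus strand: cccatttccgCTTCCGGcgcgccggtg
Cox6a1, NRF1, chr5:115349101-115349130, minus strand: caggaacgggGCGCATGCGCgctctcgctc
Uqcr11, ETS, chr10:80406871-80406897, minus strand: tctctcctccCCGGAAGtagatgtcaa
Cox15, ETS, chr19:43752977-43753003, minus strand: gacgcctgacCCGGAAGtgcttgttct
The capitals start 5 bases before the start site in *Cox8a*, which holds a further match after it, 28 in *Cox6b1*, 16 and 162 in *Cox6a1* and 66 in *Uqcr11*, and 7 bases after it in *Cox15*. A match of letters is not a measurement of binding.

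The first question was how much of each library the 2 sets of genes took up. The nucleus-encoded members took 2.51%, 2.74% and 2.75% of the counts in the CD4cre libraries. They took 3.96%, 3.12%, 3.02%, 3.00% and 2.92% in the CD4IKK1Δ libraries and 2.02%, 1.86% and 1.56% in the CD4NIKΔ libraries. The 3 groups did not overlap, with every CD4IKK1Δ library above and every CD4NIKΔ library below the CD4cre libraries.

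The mitochondria-encoded members took 1.90%, 1.98% and 1.99% of the counts in CD4cre libraries. They took 2.76%, 2.25%, 2.10%, 2.22% and 2.08% in CD4IKK1Δ libraries and 1.89%, 1.65% and 2.03% in CD4NIKΔ libraries. All CD4IKK1Δ libraries were above all CD4cre libraries, whereas the CD4NIKΔ libraries lay on both sides of them. Each mitochondria-encoded count thus stood beside a smaller number of nucleus-encoded counts in CD4NIKΔ. The ratio of mitochondria-encoded to nucleus-encoded counts was 0.757, 0.722 and 0.722 in CD4cre, 0.695, 0.722, 0.696, 0.741 and 0.714 in CD4IKK1Δ and 0.936, 0.887 and 1.30 in CD4NIKΔ libraries. The CD4cre and CD4IKK1Δ libraries overlapped in this ratio and the CD4NIKΔ libraries lay above both, with replicate 3 the farthest. That library also had the highest sum of erythroid markers, 8183 CPM against 1177 and 2085 CPM in the other CD4NIKΔ libraries. These shares are descriptions with no test, and the T cell and neuronal marker sums given above, which also separate CD4NIKΔ from the other groups, move with them. Kidney tubule markers, from cells rich in mitochondria, summed to 19.3 to 80.8, 7.07 to 13.3 and 33.4 to 129 CPM, and brown fat markers to 34.4 to 42.95, 30.4 to 57.6 and 17.0 to 20.1 CPM, in CD4cre, CD4IKK1Δ and CD4NIKΔ libraries. Their part in the shares was not tested.

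**Figure D1:**
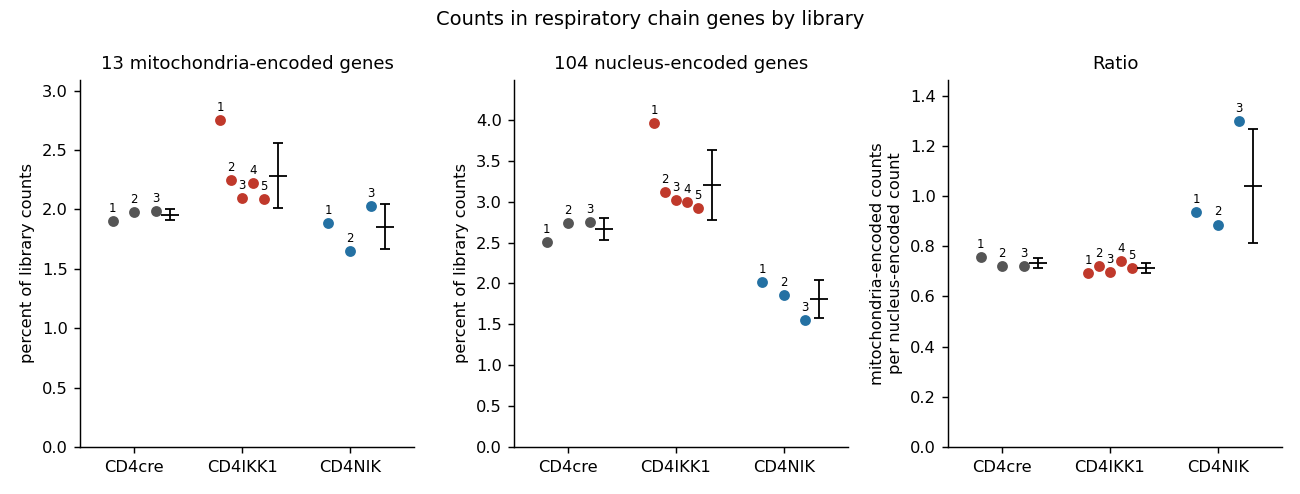
Share of each library's counts in the 13 mitochondria-encoded genes (left) and the 104 nucleus-encoded genes (middle), in percent, and the ratio of these counts (right). Each point is a library with its replicate number, and bars give the mean and SD of the group (n = 3, 5 and 3). The nucleus-encoded share separates all 3 groups, and the ratio sets the CD4NIKΔ libraries, at 0.887 or more, above the others, at 0.757 or less.

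Every nucleus-encoded complex followed the same order of groups in its share of counts. Complex I subunits took 1.02% ± 0.0636 (SD, n = 3) of the counts in CD4cre, 1.25% ± 0.176 (n = 5) in CD4IKK1Δ and 0.621% ± 0.109 (n = 3) in CD4NIKΔ libraries. Complex IV subunits took 0.579% ± 0.0310, 0.718% ± 0.123 and 0.337% ± 0.0576, and complex V genes took 0.699% ± 0.0330, 0.799% ± 0.0738 and 0.592% ± 0.0381. The step from CD4cre to CD4NIKΔ was thus wider for complexes I and IV than for complex V. Complex III genes ran from 0.218% to 0.229% in CD4cre, from 0.242% to 0.348% in CD4IKK1Δ and from 0.140% to 0.173% in CD4NIKΔ libraries.

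Among the mitochondria-encoded members, levels were compared per kb of annotated gene, since the genes differ in length from 204 bases (*mt-Atp8*) to 1824 bases (*mt-Nd5*). In CD4cre libraries the catalytic and core subunits of complex IV were high, with *mt-Co3* at 7470 ± 171 CPM per kb (SD, n = 3), *mt-Co2* at 3155 ± 19.4 and *mt-Co1* at 1989 ± 49.0. *mt-Atp6*, the proton channel subunit of complex V, had 2749 ± 394, *mt-Cytb*, the only mitochondria-encoded subunit of complex III, 1766 ± 63.9, and *mt-Nd1* 1567 ± 31.4 CPM per kb. *mt-Atp6* and *mt-Co2* overlapped in range within CD4cre libraries, so that their order was not separated there. The same held for no other pair of neighbours among these 6 at the levels given. *Gm29216*, a row nearly identical to *mt-Co1* that is described below, held 53518, 39056 and 40834 counts in these libraries. *mt-Co1* held 80948, 61383 and 62290. The levels leave *Gm29216* out, so that the place of *mt-Co1* in the order is uncertain.

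The other 6 subunits of complex I were lower. *mt-Nd4* had 653 ± 29.95, *mt-Nd2* 499 ± 33.3 and *mt-Nd5* 409 ± 19.5 CPM per kb. *mt-Nd6*, the only member on the other strand, had 332 ± 22.1 and *mt-Nd3* 119 ± 5.71 CPM per kb, and *mt-Nd4l* and *mt-Atp8* were lowest, at 46.2 ± 3.47 and 19.0 ± 5.18. The last 2 genes are the upstream genes of the overlaps printed above, of which only that of *mt-Atp8* could hold a whole read. They rest on 223 to 402 and on 43 to 139 counts per library. As background, these genes are transcribed as long units that are cut apart, and unequal levels along a strand are well known.

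The mitochondria-encoded genes also have near-identical copies in the nuclear genome, and the counting could split reads between them. Rows with a transcript at least 95% identical over at least 150 bases existed for 8 of the 13 members. *Gm29216*, 99.8% identical to *mt-Co1* over 483 bases, held between 36622 and 53518 counts in CD4cre and CD4IKK1Δ libraries and 26369, 42458 and 15915 counts in CD4NIKΔ libraries. *mt-Co1* itself held between 48724 and 80948 counts, so that its own level is uncertain by that share. The copies of *mt-Co2* (*Gm28661*), *mt-Co3* (*Gm28437*) and *mt-Nd3* (*Gm28438*) were at least 99.7% identical to them. In CD4NIKΔ libraries *Gm28661* held 3396, 1074 and 2507 counts, *Gm28437* 837, 4429 and 4946, and *Gm28438* 0, 159 and 117. In CD4cre and CD4IKK1Δ libraries they held at most 769, 1011 and 98. These counts are not in the levels of single genes, whose differences in CD4NIKΔ are uncertain by that share. With the 10 copy rows added, the mitochondrial share was 2.12%, 2.19% and 2.20% in CD4cre, 2.29% to 3.05% in CD4IKK1Δ and 2.05%, 1.88% and 2.18% in CD4NIKΔ libraries.

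**Figure D2:**
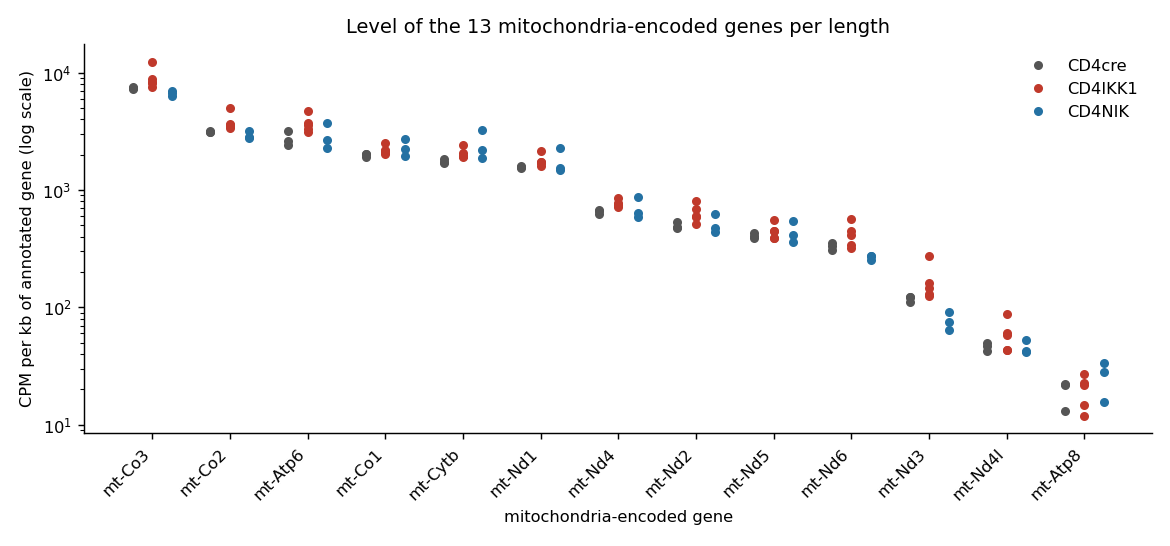
Level of each mitochondria-encoded gene in each of the 11 libraries, in CPM per kb of annotated gene on a log scale, ordered by the CD4cre mean. Points are libraries coloured by group. The order runs from *mt-Co3* at 7470 to *mt-Atp8* at 19.0 CPM per kb in CD4cre. The CD4NIKΔ points lie below the others for *mt-Co3*, *mt-Nd3* and *mt-Nd6*, with copy rows not included.

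CD4IKK1Δ and CD4cre libraries were compared first, since the study asked what deletion of IKK1 does to renal CD4+ T cells. All 13 mitochondria-encoded members and 86 of the 95 nucleus-encoded members tested had a log2 fold change above 0, against 51.3% of all 15653 genes tested. The medians were 0.27 for mitochondria-encoded and 0.34 for nucleus-encoded members and 0.02 for all genes. The levels of 6 of 13 mitochondria-encoded and 50 of 95 nucleus-encoded members did not overlap between the groups and were higher in CD4IKK1Δ, where 6.02% of all genes did so. At the threshold of an FDR under 0.05 the main edgeR fit called no member and no other gene (0 calls, 0.0% in either direction). Over all genes, edgeR called 21 higher and 206 lower with a filter of 10 counts in every library. It called 0 and 132 with all 11 libraries in the fit, and 0 and 60 with a filter of 1 count in any library. At an unadjusted p under 0.05, 5 mitochondria-encoded and 40 nucleus-encoded members were higher and 2 nucleus-encoded members lower, against 7.65% and 8.91% of all genes. DESeq2 called 3 nucleus-encoded members higher, *Ndufaf3*, *Ndufb5* and *Ndufv2*, and *Cox11* lower, among 310 genes higher and 675 lower in the whole table.

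The members with the smallest p among those higher in CD4IKK1Δ differed by less than 2-fold. *Ndufaf3*, an assembly factor of complex I, had 179, 172 and 174 CPM in CD4cre and 246, 229, 233, 205 and 206 CPM in CD4IKK1Δ libraries (log2 fold change 0.35, standard error 0.10, FDR 0.132). *Ndufv2*, an iron-sulfur subunit of the NADH-oxidizing arm of complex I, had 60.3, 59.7 and 60.7 CPM in CD4cre and between 69.9 and 99.0 CPM, with a median of 83.8, in CD4IKK1Δ libraries (0.47, standard error 0.14, FDR 0.153). *Ndufb5*, a membrane-arm subunit of complex I, *Cox14*, an assembly factor of complex IV, and *Atp5pb*, a subunit of the peripheral stalk of complex V, had log2 fold changes of 0.38, 0.40 and 0.24 (FDR 0.148, 0.183 and 0.187). All CD4IKK1Δ libraries were above all CD4cre libraries for these 5 genes, and replicate 1 was the highest of them for each.

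Without CD4IKK1Δ replicate 1 the median log2 fold change fell from 0.27 to 0.15 for mitochondria-encoded and from 0.34 to 0.20 for nucleus-encoded members. Without replicates 1 and 2, which hold the fewest T cell receptor counts, the medians were 0.13 and 0.17. The direction of both medians stayed, and their size depended on these libraries. In summed level all CD4IKK1Δ libraries were above all CD4cre libraries for the neuronal markers and below them for the T cell markers and for 12 macrophage and monocyte markers, which had 99.4 to 257 against 440 to 1847 CPM. The part of these markers in the shift was not tested.

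A few members pointed down in CD4IKK1Δ. *Cox11*, a copper chaperone in the assembly of complex IV, had 9.57, 3.31 and 7.17 CPM in CD4cre and 0.388, 2.83, 1.53, 1.84 and 1.44 CPM in CD4IKK1Δ libraries (log2 fold change −2.05, standard error 0.67, FDR 0.178). *Atp5a1*, the alpha subunit of the catalytic head of complex V, had 378, 436 and 397 against 315, 165, 331, 311 and 337 CPM (−0.47, FDR 0.277). The groups did not overlap for these genes or for *Uqcrc2*, the only 3 nucleus-encoded members with all CD4IKK1Δ libraries below all CD4cre libraries, where 8.44% of all genes tested had that order. *Cox10*, the heme A farnesyltransferase, *Uqcrc2*, a core subunit of complex III, and *Ndufv3*, a small subunit of complex I, had log2 fold changes of −0.51, −0.19 and −0.28 (FDR 0.325, 0.337 and 0.871). *Cox11* shares transcript sequence with *Stxbp4* (425 bases) and *Tom1l1* (578 bases), so that its few counts, 6 to 249 per library, could be split with these genes.

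CD4NIKΔ was compared with CD4cre next, which asks what deletion of NIK does in cells sorted in the same way. The T cell marker sums of the groups, given above, do not overlap. It shares the CD4cre libraries with the comparison above, so that the values of both are given side by side only. Of the 95 nucleus-encoded members tested, 31 were lower in CD4NIKΔ at an FDR under 0.05 and 1 was higher, while 8.97% and 12.1% of all 15209 genes tested were called lower and higher. In the main edgeR fit no mitochondria-encoded member was called. At an unadjusted p under 0.05, 0 were higher and 1 (*mt-Nd3*) lower there (19.0% and 17.8% of all genes). DESeq2 called 0 higher and 1 lower. *mt-Nd3* passed the FDR threshold in 2 of 10 alternatives, DESeq2 included, and in 1 of 6 fits that left out 1 library. The median log2 fold change was −0.53 for nucleus-encoded members, 0.06 for mitochondria-encoded members and −0.02 for all genes. The mitochondria-encoded median turned to −0.08 with upper-quartile scaling and to −0.07 with library size alone, whereas that of nucleus-encoded members stayed below 0 under every scaling. Levels did not overlap and were lower in CD4NIKΔ for 66 nucleus-encoded and 3 mitochondria-encoded members (69.5% and 23.1% of those tested, against 22.4% of all genes).

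The number of calls in this comparison varied with single libraries, for the members as for all genes. Without CD4NIKΔ replicate 2 or 3 or CD4cre replicate 2 or 3, 0 nucleus-encoded members were called lower, without CD4cre replicate 1 the number was 3, and without CD4NIKΔ replicate 1 it was 47. Over all genes the 1365 lower calls became 67 and 63 without CD4NIKΔ replicates 2 and 3, 118 and 80 without CD4cre replicates 2 and 3, 849 without CD4cre replicate 1 and 2237 without CD4NIKΔ replicate 1. The median log2 fold change of the nucleus-encoded members stayed between −0.60 and −0.42 in all 6 fits. The 9 of 12 neuronal markers that were called lower in CD4NIKΔ and the 16 of 18 T cell markers called higher move with these genes, and their part was not tested.

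The members that fell comprised 14 of 39 complex I subunits tested, 3 of 8 complex I assembly factors, 4 of 8 complex III genes, 6 of 14 complex IV subunits, 1 of 9 complex IV assembly factors and 3 of 17 complex V genes, where 8.97% of all genes were called lower. The share of the complex IV assembly factors was near that of all genes. In complex I, *Ndufc2*, a small membrane-arm subunit (chromosome 7, 97049210 to 97057022 of GRCm39), had 285, 320 and 333 CPM in CD4cre and 199, 192 and 157 CPM in CD4NIKΔ libraries (log2 fold change −0.79, standard error 0.18, FDR 0.0227). *Ndufa5*, an accessory subunit of the matrix arm, had 177, 172 and 182 against 113, 115 and 81.9 CPM (−0.79, standard error 0.19, FDR 0.0269). All CD4NIKΔ libraries were below all CD4cre libraries for both genes.

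In complex IV, the small subunit *Cox8a* (chromosome 19, 7192515 to 7194997) had 940.5, 999 and 1027 CPM in CD4cre and 646, 608 and 476 CPM in CD4NIKΔ libraries (log2 fold change −0.79, standard error 0.19, FDR 0.0253). *Cox4i1*, the regulatory subunit that binds ATP, had 224, 216 and 187 against 138, 128 and 122 CPM (−0.70, standard error 0.17, FDR 0.0261). The groups were apart for both. *Cox4i1* shares 168 bases of transcript with its neighbour *Emc8*, which held 601 to 1391 counts per library. In complex III, *Uqcr10*, *Uqcr11*, *Uqcrh* and *Uqcrq*, all small accessory subunits, fell by 0.70, 0.79, 0.59 and 0.57 on the log2 scale.

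In complex V, *Atp5g1*, 1 of the genes for the c subunit of the rotor ring, had 607, 647 and 663 CPM in CD4cre and 426, 409 and 319 CPM in CD4NIKΔ libraries (log2 fold change −0.75, standard error 0.19, FDR 0.0277). The pseudogene *Gm10039*, 99.8% identical to it over 411 bases, held 464 to 2974 counts per library. *Atp5d*, the delta subunit of the central stalk, fell by 1.02 on the log2 scale (FDR 0.0307) and was the only member more than 2-fold lower at this FDR, where 6.99% of all genes were. The fall of most members was thus less than 2-fold.

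Some members with long coding sequences did not share this direction. *Atp5b*, the beta subunit that holds the catalytic sites of complex V, had 1252, 1245 and 1319 CPM in CD4cre and 1832, 1496 and 1963 CPM in CD4NIKΔ libraries (log2 fold change 0.46, standard error 0.19, FDR 0.115), with all CD4NIKΔ libraries above all CD4cre libraries. *Atp5a1* (0.39, FDR 0.326) and *Cox10* (0.28, FDR 0.355) had ranges that overlapped those of CD4cre. *Cox15*, the heme A synthase that acts after *Cox10* (chromosome 19, 43721693 to 43741612), was the only member called higher in the main fit. It had 13.5, 4.13 and 9.37 CPM in CD4cre and 28.4, 27.6 and 27.9 CPM in CD4NIKΔ libraries (1.62, standard error 0.43, FDR 0.0328). Its call held in 2 of the 6 fits that left out 1 library (FDR up to 0.0962). It rests on 85 to 561 counts per library, and 1961 bases of its transcripts are shared with *Entpd7*. *Cox6b2*, a testis-type subunit, stayed at or under 2.83 CPM in all libraries (1.41, standard error 1.03, FDR 0.353).

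**Figure D3:**
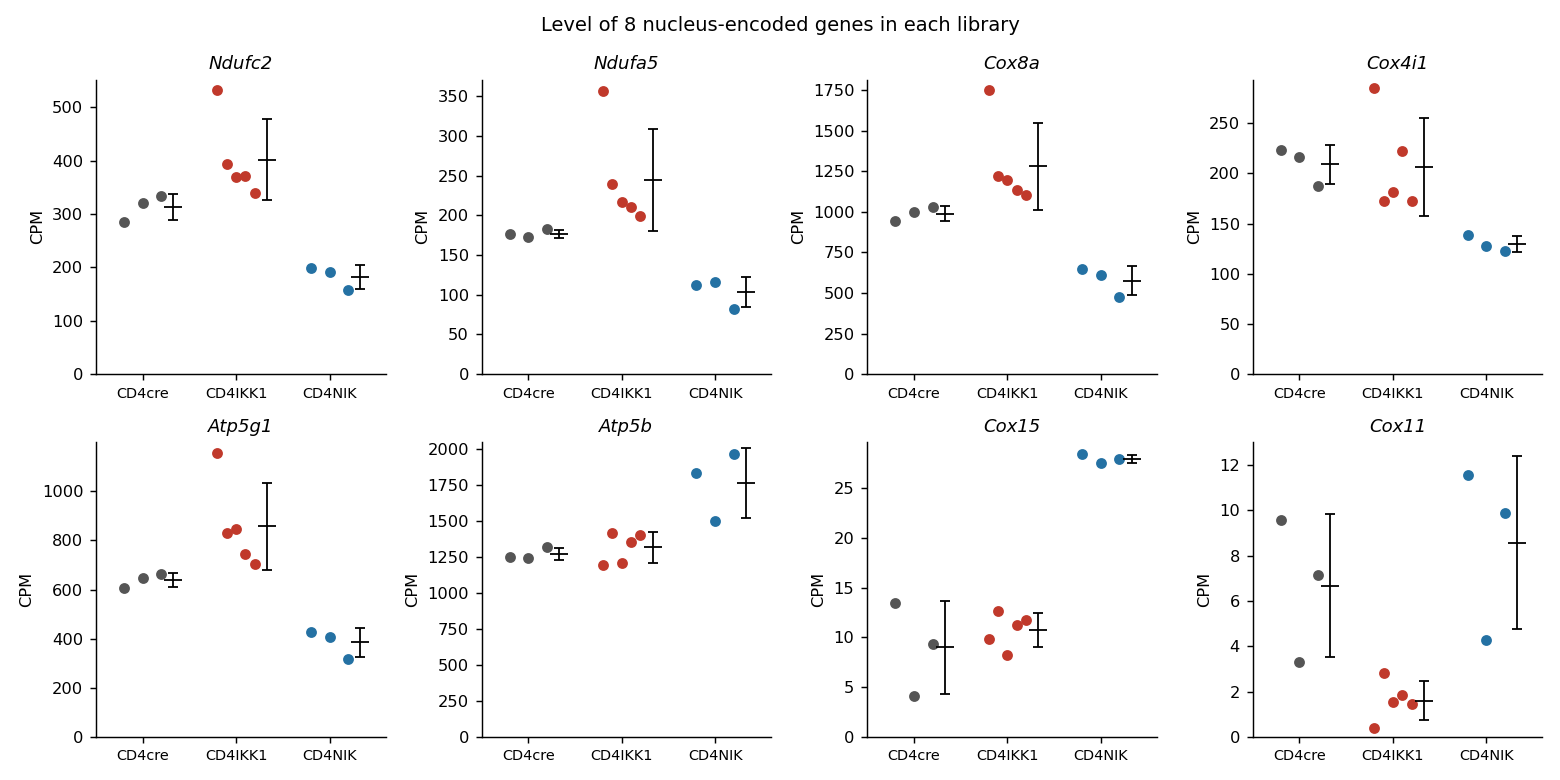
Level of 8 nucleus-encoded genes in each library in CPM, with the mean and SD of each group to the right of its points (n = 3, 5 and 3). *Ndufc2*, *Ndufa5*, *Cox8a*, *Cox4i1* and *Atp5g1* are lowest in the 3 CD4NIKΔ libraries, *Atp5b* and *Cox15* are highest there, and *Cox11* is lowest in CD4IKK1Δ libraries.

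Most of the members that fell were short. Nucleus-encoded members with a coding length of up to 300, of 301 to 450 and of 451 to 700 bases had median log2 fold changes of −0.50 (n = 21), −0.62 (n = 28) and −0.65 (n = 19) in CD4NIKΔ against CD4cre, with 5, 11 and 12 called lower. Those over 700 bases had a median of 0.02 (n = 23), with 1 called lower and 1 higher. Among all protein-coding genes tested the medians in the same bins were −0.45, −0.30, −0.12 and 0.04, so that short genes in general were lower in CD4NIKΔ. Of all protein-coding genes in these bins 15.1%, 14.7%, 12% and 8.75% were called lower. The members lay well below genes of their own length in the middle bins, close to them in the shortest bin and level with them over 700 bases. The part of transcript length in the fall of the members was not tested further.

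**Figure D4:**
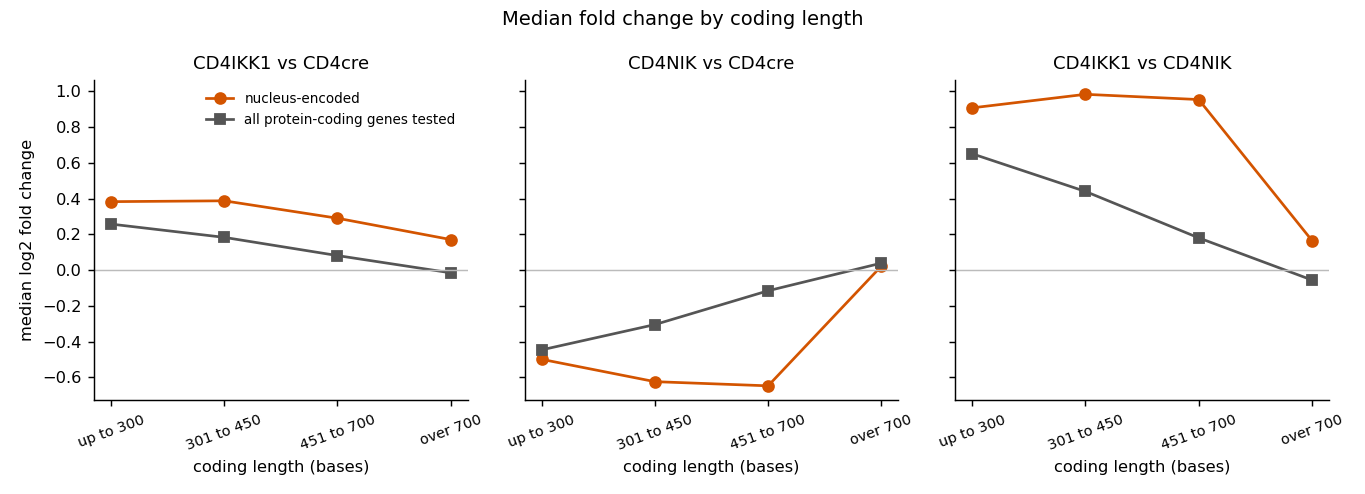
Median log2 fold change of nucleus-encoded respiratory chain genes (circles) and of all protein-coding genes tested (squares) in 4 bins of coding length, for the 3 comparisons. In CD4NIKΔ against CD4cre the members run from −0.50 in the shortest bin to 0.02 over 700 bases, and all genes from −0.45 to 0.04.

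The mitochondria-encoded members pointed in both directions in CD4NIKΔ. *mt-Cytb* had 2000, 2102 and 1961 CPM in CD4cre and 2532, 2163 and 3711 CPM in CD4NIKΔ libraries (log2 fold change 0.46, standard error 0.24, FDR 0.197). *mt-Nd3* had 39.0, 42.5 and 42.4 against 31.6, 26.1 and 22.3 CPM (−0.64, standard error 0.24, FDR 0.0866). *mt-Nd6* had 161, 184 and 172 against 131, 141 and 141 CPM (−0.34, FDR 0.172). The groups did not overlap for these 3 genes or for *mt-Co3* (−0.17, FDR 0.538), and none passed the threshold in the main fit. The copy of *mt-Nd3* held 0, 159 and 117 counts in CD4NIKΔ and 98, 12 and 0 in CD4cre libraries. That of *mt-Co3* held 837, 4429 and 4946 against 1011, 697 and 183, and levels with these counts added were not tested. Among the genes without overlap *mt-Cytb* was the only one higher in CD4NIKΔ, where 22.9% of all genes were higher without overlap. The log2 fold changes of the other 9 lay between −0.12 and 0.42 with FDR of 0.514 or more.

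In the composition of the mitochondrial counts, *mt-Cytb* made up 10.7% ± 0.399 (SD, n = 3) in CD4cre and 14.0% ± 2.16 (n = 3) in CD4NIKΔ libraries, and *mt-Co3* 31.0% ± 0.835 and 26.8% ± 2.29. *mt-Nd3* made up 0.219% ± 0.00982 and 0.137% ± 0.0338. The CD4NIKΔ libraries were all above the CD4cre libraries for the first gene and all below for the other 2.

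CD4IKK1Δ and CD4NIKΔ libraries were compared directly to test whether the 2 deletions differ. Of the 96 nucleus-encoded members tested, 66 were higher and 6 lower in CD4IKK1Δ at an FDR under 0.05, where 20.2% and 22.0% of all 16546 genes tested were called higher and lower. Of the mitochondria-encoded members, 4 of 13 were higher and 0 lower, with 0 lower also at an unadjusted p under 0.05 (25.7% of all genes) and in DESeq2, which called 2 higher. At an unadjusted p under 0.05, 71 nucleus-encoded members were higher, where 23.8% of all genes were. The median log2 fold changes were 0.85 and 0.33, against 0.06 for all genes. A difference over 2-fold at this FDR was seen for 27 nucleus-encoded and 1 mitochondria-encoded member, where 14.8% of all genes were that much higher, and 2 nucleus-encoded members were that much lower (18.5%). Levels did not overlap for 72 nucleus-encoded members higher (20.7% of all genes) and for 6 lower (24.4%) in CD4IKK1Δ.

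The members called higher in CD4IKK1Δ comprised 30 of 39 complex I subunits, 5 of 8 complex I assembly factors, 5 of 8 complex III genes, 11 of 15 complex IV subunits and 12 of 17 complex V genes, where 20.2% of all genes were. Of 9 complex IV assembly factors 3 were higher and 3 lower. *Ndufb5* had 584, 495, 452, 456 and 462 CPM in CD4IKK1Δ and 271, 239 and 220 CPM in CD4NIKΔ libraries (log2 fold change 1.01, standard error 0.13, FDR 0.000171). *Ndufaf3*, *Ndufc2*, *Cox8a* and *Atp5g1* differed by 1.06, 1.14, 1.15 and 1.16 on the log2 scale (FDR 0.000171, 0.00024, 0.000267 and 0.00027). The largest differences among members higher in CD4IKK1Δ were those of *Ndufa5* (1.24) and *Ndufa4* (1.24), a subunit first assigned to complex I and later to complex IV. For all 7 genes each CD4IKK1Δ library was above each CD4NIKΔ library. The counts of calls changed little when single libraries were left out, with 59 to 66 nucleus-encoded members higher.

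The 6 members lower in CD4IKK1Δ than in CD4NIKΔ were *Cox15* (log2 fold change −1.38, FDR 0.00572), *Cox11* (−2.41, FDR 0.00667), *Atp5b* (−0.42, FDR 0.0095), *Atp5a1* (−0.87, FDR 0.0136), *Cox10* (−0.80, FDR 0.0138) and *Uqcrc2* (−0.36, FDR 0.0267). They hold the alpha and beta subunits of complex V, a core subunit of complex III and 3 assembly factors, of which 2 make heme A and 1 delivers copper to complex IV. All 6 have coding sequences over 700 bases, a bin in which 6 of 23 members tested were lower and 5 higher. With upper-quartile scaling, which moved the median of all genes from 0.06 to 0.30, 2 members were called lower. *Uqcrc2* lost its call without CD4IKK1Δ replicate 3 or 4 or CD4NIKΔ replicate 1 or 3 (FDR 0.0566, 0.0592, 0.0621 and 0.101), and *Atp5a1* without CD4NIKΔ replicate 2 (FDR 0.103).

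Among mitochondria-encoded members, *mt-Nd3* had 94.9, 50.9, 45.1, 56.2 and 43.4 CPM in CD4IKK1Δ against 31.6, 26.1 and 22.3 CPM in CD4NIKΔ libraries (log2 fold change 1.12, standard error 0.27, FDR 0.00474). *mt-Nd6* had 297, 216, 178, 231 and 166 against 131, 141 and 141 CPM (0.66, standard error 0.18, FDR 0.00968). Both groups were apart for these 2 genes. The copy of *mt-Nd3* held 0, 159 and 117 counts in CD4NIKΔ and at most 15 in CD4IKK1Δ libraries. *mt-Nd3* itself held 573, 531 and 316 counts in CD4NIKΔ, so that its difference of over 2-fold is uncertain by that share. *mt-Co3* (0.44, FDR 0.03) and *mt-Co2* (0.38, FDR 0.033) passed the threshold by little and lost it without CD4NIKΔ replicate 1 or 2, and *mt-Co3* also without CD4NIKΔ replicate 3. Without CD4IKK1Δ replicates 1 and 2 the number called was 2 and the median 0.10. Here 11 of 12 neuronal markers were higher and 16 of 18 T cell markers lower in CD4IKK1Δ, and their part was not tested.

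**Figure D5:**
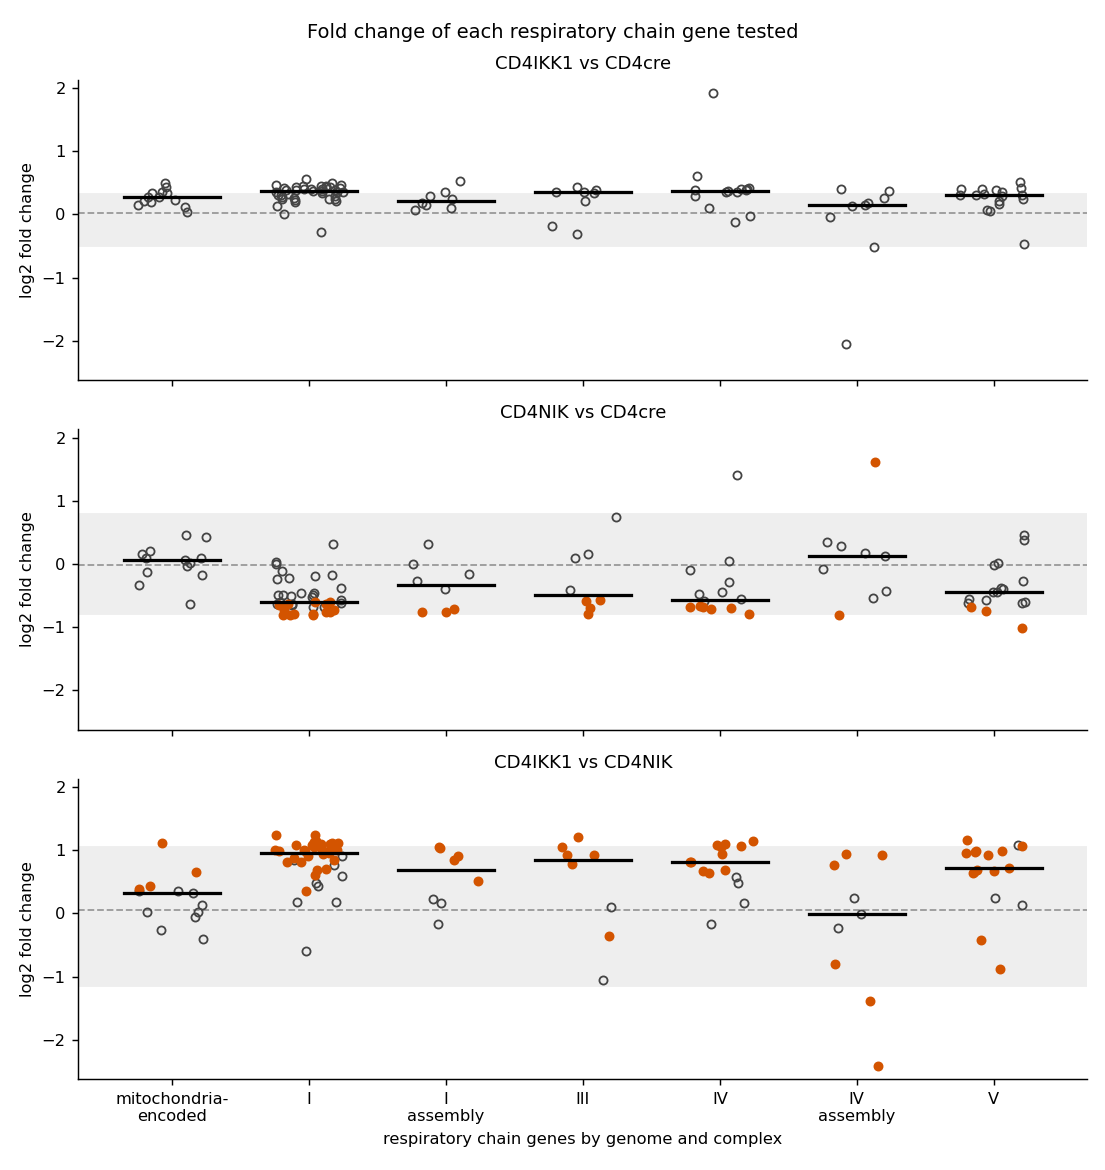
Log2 fold change of each member tested in the 3 comparisons, by genome and complex. Filled points passed an FDR under 0.05, horizontal bars are medians of the members, the dashed line is the median and the grey band the quartiles of all genes tested. In CD4NIKΔ against CD4cre the nucleus-encoded complexes I, III, IV and V lie below 0 with medians of −0.44 to −0.61, and the mitochondria-encoded genes lie around 0.06.

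Complex IV subunits have tissue-specific isoforms, which were looked at one by one. The widely expressed isoforms *Cox4i1*, *Cox6a1*, *Cox6b1*, *Cox7a2* and *Cox8a* ran from 122 to 285, 537 to 2044, 279 to 1029, 194 to 701 and 476 to 1750 CPM over the 11 libraries. Their tissue-restricted partners were low, where the floor of 3 counts was 0.117 to 0.190 CPM. *Cox6a2* and *Cox7a1*, the isoforms of heart and skeletal muscle, reached 4.91 and 0.584 CPM. *Cox4i2*, typical of lung, was at 0 counts in 8 libraries and reached 1.44 CPM, and *Cox8c* was at 0 in 10 of 11 libraries. Summed levels of 10 striated muscle markers were 111 to 133 CPM in CD4cre, 143 to 189 in CD4IKK1Δ and 38.3 to 68.9 in CD4NIKΔ libraries. No tissue-restricted isoform tested passed the threshold in any comparison. The widely expressed *Cox6a1*, *Cox6b1* and *Cox7a2* were lower in CD4NIKΔ than in CD4cre (−0.72, −0.67 and −0.67, FDR 0.0364, 0.0412 and 0.0393), while *Cox7b* (−0.47, FDR 0.0679) and the supercomplex factor *Cox7a2l* (−0.56, FDR 0.0882) did not pass. *Cox7b2*, the testis-type partner of *Cox7b*, and *Ndufa4l2*, the hypoxia-induced partner of *Ndufa4*, stayed at or under 1.81 and 0.405 CPM.

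Other genes that serve the respiratory chain gave a mixed picture in CD4NIKΔ. In this comparison 12.1% of all genes were called higher and 8.97% lower. Of 28 genes for the expression of mitochondrial DNA, 4 were called higher, a share near that of all genes. The median log2 fold change of the 28 genes was 0.65, against −0.02 for all genes. Those called were *Mterf1a*, a termination factor (log2 fold change 1.76), *Mtpap*, the poly(A) polymerase (1.34), *Pnpt1*, a nuclease of mitochondrial RNA (2.10), and *Trmt10c*, a subunit of RNase P (1.52), with FDR from 0.0208 to 0.042. Of 9 biogenesis regulators tested, *Nrf1* (1.23), *Gabpa* (1.37), *Gabpb1* (1.73) and *Myc* (1.81) were higher, with FDR from 0.0109 to 0.0248. *Ppargc1a*, the coactivator of mitochondrial biogenesis and also on the list of brown fat markers, was lower (−1.01, FDR 0.0279). *Nrf1*, *Gabpa* and *Gabpb1* were called higher in the comparison in which 31 nucleus-encoded members were called lower. There 16 of 18 T cell markers were called higher too. *Gabpa* shares 937 bases of transcript with the member *Atp5j*, so that its counts, 120 to 784 per library, could be split with that gene. The ETS letters were in 7 of 29 promoters (24.1%) of the members that fell and in 16 of 56 (28.6%) of the other members tested. The NRF1 letters were in 2 (6.9%) and 5 (8.93%). The part of these factors in the levels of the members was not tested.

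Of 76 mitochondrial ribosomal protein genes tested, 8 were called lower and 1 higher in CD4NIKΔ than in CD4cre, where 8.97% and 12.1% of all genes were, and their median log2 fold change was −0.30. Among 31 assembly factors outside the prefixes, *Coa3*, *Coa6*, *Sdhaf4* and *Surf1* were lower (−0.93, −0.63, −0.93 and −0.80) and *Foxred1* was higher (0.90). The 6 genes of complex II, cytochrome c and *Cyc1* had log2 fold changes from −0.50 (*Cycs*, FDR 0.0743) to 0.34 (*Sdha*, FDR 0.196). Of 17 genes of the tricarboxylic acid cycle, which feeds electrons to the chain, 1 was called, *Suclg2* (3.01, FDR 0.00711). In CD4IKK1Δ against CD4cre none of these lists held a called gene in the main fit, as no gene was called there. In CD4IKK1Δ against CD4NIKΔ, where 20.2% of all genes were called higher and 22.0% lower, 37 mitochondrial ribosomal protein genes were higher and 5 lower, 10 and 2 of the other assembly factors, 1 and 7 of the genes for mitochondrial DNA expression, 1 and 4 of the biogenesis regulators, while 3 of the tricarboxylic acid cycle genes were lower and 3 of the complex II list higher.

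Of the 117 members, 8 were tested in no comparison because of few or no counts. *Ndufa11b*, *Ndufb11b* and *Ndufs6b* had 0 counts in every library, and *Cox20b*, *Cox6c2*, *Cox7a1*, *Cox8c* and *Ndufa4l2* had at most 29 counts in a library. *Cox4i2* was tested between CD4IKK1Δ and CD4NIKΔ alone (0.16, FDR 0.963). The annotation classes *Cox6c2*, *Ndufa11b*, *Ndufb4c* and *Ndufs6b* as pseudogenes. *Ndufb4c*, which was among the members lower in CD4NIKΔ, is 99.5% identical to *Ndufb4* over 391 bases, so that reads of the pair could be split between them.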

How the data were processed

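Reads of renal CD4+ T cells from 11 mice were trimmed with Trimmomatic and assigned to mouse transcripts with kallisto by the authors, who deposited estimated counts per gene symbol for 35814 symbols and 11 libraries, without normalization. The paper names the assembly GRCm39, and the submitters' processing notes name mm10. Neither the version of kallisto nor its annotation is given in the sources used here. No column was left unmapped. Members and other lists were chosen with earlier results of these data known.

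Estimated counts were rounded to whole numbers. Between 73.4% and 77.1% of the values above 0 in a library were not whole, as kallisto divides reads among transcripts. Genes were filtered with filterByExpr, scaled by TMM (factors 0.899 to 1.05) and compared by robust quasi-likelihood fits (edgeR 4.0.16, limma 3.58.1, R 4.3.3), with Benjamini-Hochberg adjustment over all genes tested (15653, 15209 and 16546) and a threshold of an FDR under 0.05. Comparisons with CD4cre used both groups, and CD4IKK1Δ against CD4NIKΔ used all 11 libraries. The p-values measure the spread between libraries of separate mice. No 2 of the 55 pairs of libraries were identical. The floor is 3 counts per library and covers counting error only, because PCR copies were not collapsed by molecular identifiers. The tests were run on simulated counts with known fold changes.

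Genes named are the 13 mitochondria-encoded members, the 5 nucleus-encoded members with the smallest p in each direction of each comparison, and tissue isoforms of complex IV and of *Ndufa4*. Genes named beside these (*Atp5d*, the 4 complex III subunits, *Ndufb4c*, copy rows and called genes of the other lists) were chosen after their values were seen. GENCODE release M39 gave coordinates and coding lengths for 113 of 117 members, 13 of them through RefSeq synonyms. Shared transcript sequence was found by alignment of member transcripts to all GENCODE transcripts. Alternatives were DESeq2 (1.42.0), RLE, upper-quartile and no factors, factors without mitochondria-encoded rows, 2 filters, fits without the robust option, a block for the replicate number, other libraries in the fit, a 2-fold threshold and leaving out libraries. Means without single libraries for the shares of counts were added after seeing the data.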

Additional observations from a re-analysis of the deposited data

Results flagged for a closer look

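Within the 5 CD4IKK1Δ libraries, the gap between an extreme library and its neighbour was checked against the critical value of Dixon's test (0.71 for 5 libraries) for 12 shares of counts and 40 named members, and 24 values exceeded it. Chance gives about 1 in 20. The values share libraries and denominators, and 22 of the 24 belong to CD4IKK1Δ replicate 1, the library with 41 T cell receptor constant counts. It stood highest with 2.76% of its counts in mitochondria-encoded and 3.96% in nucleus-encoded members, 4.08% with the mitochondria-encoded rows left out of the denominator and 3.77% without assembly factors. By complex it held 1.56% in complex I subunits, 0.348% in complex III, 0.936% in complex IV subunits, 0.0999% in complex IV assembly factors and 0.929% in complex V.

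By gene, replicate 1 stood apart upwards with 574 CPM of *Cox14*, 2044 of *Cox6a1*, 1029 of *Cox6b1*, 701 of *Cox7a2*, 443 of *Cox7b*, 1750 of *Cox8a*, 1331 of *Ndufa4*, 357 of *Ndufa5* and 533 of *Ndufc2*. The mitochondria-encoded genes that stood apart were *mt-Co2* with 3399, *mt-Co3* with 9752, *mt-Nd1* with 2047 and *mt-Nd3* with 94.9 CPM. *Atp5a1* stood apart downwards in replicate 2 (165 CPM), and *Cox4i2* upwards in replicate 4 (1.44 CPM), where the other 4 libraries were at 0.

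The direct comparison of the knockouts also tests whether their differences from CD4cre differ, and edgeR called 19 named members (FDR under 0.05), where 20.2% of all genes were called higher and 22.0% lower. Of these members, 10 were named for having the smallest p in this comparison, so that the number describes the choice and supports nothing. The log2 differences, CD4IKK1Δ against CD4NIKΔ, were 1.16 for *Atp5g1*, 0.92 for *Cox14*, 0.67 for *Cox4i1*, 1.15 for *Cox8a*, 1.24 for *Ndufa5*, 1.06 for *Ndufaf3*, 1.01 for *Ndufb5*, 1.14 for *Ndufc2* and 1.03 for *Ndufv2*. They were 0.38 for *mt-Co2*, 0.44 for *mt-Co3*, 1.12 for *mt-Nd3* and 0.66 for *mt-Nd6*. Differences in the other direction were −0.87 for *Atp5a1*, −0.42 for *Atp5b*, −0.80 for *Cox10*, −2.41 for *Cox11*, −1.38 for *Cox15* and −0.36 for *Uqcrc2*.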

How the results depend on the processing

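Leaving out each library in turn gave, in CD4IKK1Δ against CD4cre, 0 to 0 calls for either set in either direction and medians of 0.15 to 0.32 (mitochondria-encoded) and 0.20 to 0.39 (nucleus-encoded). In CD4NIKΔ against CD4cre it gave 0 to 47 nucleus-encoded members lower and 0 to 2 higher, 0 to 1 mitochondria-encoded members lower and 0 to 0 higher, and medians of −0.60 to −0.42 and, for mitochondria-encoded members, −0.12 to 0.22. In CD4IKK1Δ against CD4NIKΔ it gave 59 to 66 nucleus-encoded members higher and 5 to 6 lower, 2 to 5 mitochondria-encoded members higher and 0 to 0 lower, and medians of 0.72 to 0.94 and 0.17 to 0.44. Fits with 2 libraries in a group assume that both groups share their spread. Group means ran from 1.94 to 1.98, 2.16 to 2.33 and 1.77 to 1.96 percent for mitochondria-encoded members, from 2.63 to 2.75, 3.01 to 3.27 and 1.71 to 1.94 percent for nucleus-encoded members and from 0.722 to 0.740, 0.707 to 0.718 and 0.912 to 1.12 for their ratio (CD4cre, CD4IKK1Δ, CD4NIKΔ).

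Upper-quartile scaling moved the median of all genes to 0.11, −0.16 and 0.30 in the 3 comparisons, and library size alone to −0.01, −0.15 and 0.16. Under upper-quartile scaling the mitochondria-encoded median was 0.37 in CD4IKK1Δ against CD4cre and 0.57 in CD4IKK1Δ against CD4NIKΔ, the nucleus-encoded median was 1.11 and the number lower 2 in the latter, and 57 nucleus-encoded and 1 mitochondria-encoded member were lower in CD4NIKΔ against CD4cre. Library size alone gave 50 nucleus-encoded members lower there. DESeq2 called 3 nucleus-encoded members higher and 1 lower in CD4IKK1Δ against CD4cre and 1 mitochondria-encoded member lower in CD4NIKΔ against CD4cre. In CD4IKK1Δ against CD4NIKΔ, 2 mitochondria-encoded members were higher with DESeq2, RLE factors, 10 counts in every library, only these groups in the fit, or without CD4IKK1Δ replicates 1 and 2, where the mitochondria-encoded median was 0.10 (0.13 against CD4cre). All 11 libraries in the fit gave 2 members higher in CD4NIKΔ against CD4cre. A threshold of 2-fold left 1 member lower there, and 27 and 2 nucleus-encoded and 1 mitochondria-encoded member in CD4IKK1Δ against CD4NIKΔ.

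Same-numbered libraries did not deviate together (r from −0.156 to 0.114), so that the numbers are not taken as pairs. With the replicate number as a block, 0 nucleus-encoded members were lower and 0 higher in CD4NIKΔ against CD4cre, and 2 were lower in CD4IKK1Δ against CD4NIKΔ.

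With copy rows added, the mean mitochondrial share was 2.17% in CD4cre, and the ratio was 0.813 in CD4cre and 0.785 in CD4IKK1Δ. Without assembly factors the nucleus-encoded share was 2.52% in CD4cre and the ratio 0.776 and 0.753. For the named members, 711 of 753 values in CD4IKK1Δ against CD4NIKΔ, 728 of 732 in CD4IKK1Δ against CD4cre and 531 of 623 in CD4NIKΔ against CD4cre kept their side of the threshold, and no called value changed sign. The cause of these changes was not tested.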
